A study of Mus musculus with 8 samples.

Results

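The 10 genes described here act in mitochondrial fusion or mitochondrial fission, and they were taken by symbol from the 24354 genes of a mouse RNA sequencing table. All 10 symbols were found. On the fusion side were Mfn1, Mfn2, Opa1, and the proteases Oma1 and Yme1l1, placed there because they cut Opa1. A higher level of a protease is not read here as more fusion. On the fission side were Dnm1l, Fis1, Mff, Gdap1, and Mtfr1. Levels were available for 8 libraries, 2 from each of 4 cell types. The ratio of Mfn2 to Dnm1l had been used in the study as a measure of differentiation. The question asked here was how the other fusion and fission genes lay across the same cells.

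ESCs (embryonic stem cells) were wild-type E14 cells grown with serum and LIF on feeder cells. NSCs (neural stem cells) carried 1 copy of OG2, a GFP transgene under the distal enhancer of Oct4, and 1 copy of ROSA26 lacZ. They were grown with EGF and FGF2 on gelatin, without feeder cells. EPSCs (extended pluripotent stem cells), also wild type, were derived from C57BL/6 embryos at the 8-cell stage and kept on feeder cells in LCDM medium, which contains CHIR99021, minocycline hydrochloride, dimethindene maleate, and human LIF. They were taken at passage 15. EPSC-NSC hybrid cells were tetraploid cells made by polyethylene glycol fusion of EPSCs with these NSCs, picked for Oct4-GFP, grown like EPSCs, and taken at passage 10. The feeder cells were inactivated mouse embryonic fibroblasts, of the C3H strain for EPSCs and hybrid cells. Each group was 1 line, so the spread between its 2 libraries is that of repeated libraries and may be technical, and p-values measure only that spread. Strain, medium, and feeder cells differ between the groups together with cell type and cannot be told apart from it.

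Mitochondria fuse and divide continuously. Mfn1 and Mfn2 are dynamin-related GTPases of the outer membrane that tether and fuse neighboring mitochondria, and Opa1 fuses the inner membrane, where the proteases Oma1 and Yme1l1 cut it into short forms. Division is carried out by Dnm1l (also called Drp1), a cytosolic GTPase that is recruited to the outer membrane by adaptors such as Mff and is also linked to Fis1. Round, separate mitochondria are known from pluripotent cells, and longer, connected ones from many differentiated cells.

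Marker genes followed the labels. The summed level of 6 pluripotency markers was 4075 to 4907 FPKM in the ESC, EPSC, and hybrid libraries, and 0.576 and 0.600 in NSCs, where Pou5f1, Zfp42, and Dppa5a were at 0. The sum of 7 NSC markers was 3676 and 3721 in NSCs and 10.6 to 19.3 elsewhere. Markers of neurons and glia, 8 genes, summed to 24.2 to 87.6. Tubb3 made up most of this sum in ESCs (78.9 and 78.7), EPSCs (47.2 and 27.6), and hybrid cells (30.5 and 20.9), and the glial marker Gfap in NSCs (29.2 and 24.8). The 10 fibroblast markers summed to 12.1 and 13.3 in ESCs, 7.57 and 9.03 in NSCs, 75.5 and 77.9 in EPSCs, and 222 and 299 in hybrid cells. Among NSC libraries, 5 and 3 of these 10 genes were at 0, with Col1a2, Lum, and Twist2 at 0 in both. Prrx1 made up most of the NSC sum (6.36 and 7.70). It was lower in ESCs (0.735 and 0.892) and EPSCs (1.92 and 1.96), unlike most of these markers. In bulk RNA, fewer cells of a type and less RNA per cell cannot be told apart. Depth, derived from the steps between low FPKM values, was 22.0 to 32.6 in units of 1000000 fragments. FPKM, which divides fragments by transcript length and by mapped fragments, summed to 415240 and 415412 in NSCs and to 600674 to 653796 elsewhere. A scaling of every library to the same sum therefore moved the median over all genes, as a log2 fold change, from 0.08 to -0.48 for EPSCs against NSCs, from 0.06 to -0.51 for hybrid cells against NSCs, and from 0.03 to -0.47 for ESCs against NSCs. The share of higher genes among those called fell with it, from 52.4% to 35.1%, from 51.5% to 34.5%, and from 50.5% to 34.2%. Ratios of genes within a library do not depend on this scaling.

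To show what lies before these genes, the 250 bases before the most upstream start in RefSeq (GRCm38.p6) were read for 8 of the 10 genes. Gdap1 and Mtfr1 had no entry. They were searched on both strands for the letters CGCATGCG, the core of sites of the factor NRF1, CCGGAAG, the core of sites of the factor GABP, and AANATGGC, the core of sites of the factor YY1. These factors are known regulators of nuclear genes for mitochondrial proteins. Among 32851 windows of 250 bases in the mouse table, 1.55% held the first motif, 6.91% the second, and 3.91% the third. These windows cover every listed start, so a gene can enter more than once, whereas each member has only its most upstream start. Opa1 held the first, Mfn1, Yme1l1, and Fis1 the second, and Mfn1 and Mff the third. By GENCODE, Yme1l1 starts at chr2:23156369, so its window (chr2:23156255-23156504) reaches into the gene and its 2 matches lie inside it. The Mfn1 and Oma1 windows also run past their GENCODE starts. Printed 5′ to 3′ are the windows of Mfn2 and Dnm1l, the pair behind the ratio, and of Opa1 and Fis1, which hold a match. Capitals mark the matched letters, CGCATGCG in Opa1 and CCGGAAG in Fis1. The Mfn2 and Dnm1l windows hold none of the 3 motifs. A match describes the letters and is not evidence of binding. The windows lie at chr4:147904910-147905159 (minus strand) for Mfn2, chr16:16359032-16359281 (minus strand) for Dnm1l, chr16:29579084-29579333 (plus strand) for Opa1, and chr5:136953025-136953274 (plus strand) for Fis1.
Mfn2: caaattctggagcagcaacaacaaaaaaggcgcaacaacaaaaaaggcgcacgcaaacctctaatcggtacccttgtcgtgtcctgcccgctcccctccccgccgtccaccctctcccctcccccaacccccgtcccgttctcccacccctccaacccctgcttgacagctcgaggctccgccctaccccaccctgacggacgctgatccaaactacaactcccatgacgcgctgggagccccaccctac
Dnm1l: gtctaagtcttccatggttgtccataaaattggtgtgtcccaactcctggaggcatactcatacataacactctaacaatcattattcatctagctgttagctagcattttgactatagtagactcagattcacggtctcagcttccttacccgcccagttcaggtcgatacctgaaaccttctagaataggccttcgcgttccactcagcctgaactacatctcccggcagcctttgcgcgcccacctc
Opa1: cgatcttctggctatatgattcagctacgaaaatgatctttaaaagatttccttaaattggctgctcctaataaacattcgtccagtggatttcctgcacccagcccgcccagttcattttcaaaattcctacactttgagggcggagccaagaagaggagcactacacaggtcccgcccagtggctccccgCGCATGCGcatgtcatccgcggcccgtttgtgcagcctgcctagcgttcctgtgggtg
Fis1: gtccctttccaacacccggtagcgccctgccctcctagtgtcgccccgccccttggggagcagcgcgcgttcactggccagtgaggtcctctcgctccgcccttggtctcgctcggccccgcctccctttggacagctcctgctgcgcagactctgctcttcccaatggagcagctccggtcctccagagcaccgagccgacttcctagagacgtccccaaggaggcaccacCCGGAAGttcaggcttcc

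The mitofusins were highest in NSCs. Mfn2 (chr4:147873599-147904704, minus strand, GRCm38) was at 21.7 and 21.4 FPKM in the NSC libraries, 9.81 and 9.84 in ESCs, 7.40 and 8.76 in EPSCs, and 11.4 and 10.9 in hybrid cells. No 2 groups overlapped, and the order ran from EPSCs through ESCs and hybrid cells to NSCs. The NSC mean was 2.67 times the EPSC mean and 1.94 times the hybrid mean, and hybrid cells were 1.38 times EPSCs. Mfn1 (chr3:32529465-32579239, plus strand) was at 23.8 and 24.8 FPKM in NSCs, 12.2 and 11.6 in ESCs, 13.6 and 18.2 in EPSCs, and 16.2 and 18.2 in hybrid cells. It was above all other libraries in NSCs and below them in ESCs, and EPSCs and hybrid cells overlapped. The 2 EPSC libraries differed 1.33-fold in Mfn1, the widest gap between the libraries of a group among the 9 genes other than Gdap1.

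Opa1, the inner membrane GTPase (chr16:29579334-29654884, plus strand), varied less. It was at 17.1 and 17.5 FPKM in ESCs, 18.6 and 18.3 in EPSCs, 22.0 and 19.7 in hybrid cells, and 21.6 and 23.0 in NSCs, and its highest group mean was 1.29 times its lowest. Hybrid cells and NSCs overlapped in Opa1. The protease Oma1 (chr4:103313812-103371868, plus strand), which cuts Opa1 in stressed mitochondria, was at 5.84 and 5.34 in ESCs, 7.88 and 8.15 in NSCs, 8.86 and 7.41 in EPSCs, and 9.16 and 9.71 in hybrid cells. It was lowest in ESCs, and NSCs and EPSCs overlapped. Yme1l1, the protease that cuts Opa1 in resting cells (chr2:23156369-23199260, plus strand), was lowest where the mitofusins were highest: it was at 28.3 and 31.7 in NSCs, 57.6 and 57.7 in ESCs, 63.2 and 59.0 in EPSCs, and 69.5 and 68.1 in hybrid cells. No groups overlapped in Yme1l1, and the hybrid mean was 2.29 times the NSC mean.

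On the fission side, Dnm1l (chr16:16312230-16358959, minus strand) was lowest in NSCs, at 40.5 and 43.1 FPKM, against 54.4 and 53.7 in ESCs, 52.5 and 59.0 in EPSCs, and 49.9 and 56.4 in hybrid cells. The groups grown as pluripotent cells overlapped in Dnm1l, and the EPSC mean was 1.33 times the NSC mean. An antisense gene overlaps exons of Dnm1l and another gene on the opposite strand overlaps exons of Mff. The strand setting of the counting is not given in the sources used here, so reads of such partners cannot be told apart from theirs. Mff, the outer membrane receptor for Dnm1l (chr1:82724890-82752394, plus strand), was highest in NSCs, at 48.9 and 50.6, against 38.8 and 37.7 in ESCs, 40.5 and 35.4 in EPSCs, and 36.5 and 36.4 in hybrid cells. Fis1 (chr5:136953275-136966234, plus strand), an outer membrane protein, was also highest in NSCs, at 121 and 117, followed by 97.5 and 96.7 in ESCs, 86.5 and 76.3 in EPSCs, and 69.1 and 65.9 in hybrid cells. Fis1 separated all 4 groups, whereas Mff separated NSCs from the rest and ESCs from hybrid cells, and EPSCs overlapped both ESCs and hybrid cells.

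Mtfr1, a mitochondrial protein named for its role in fission (chr3:19187327-19220817, plus strand), had the widest range of the 9 genes. It was at 9.77 and 10.4 FPKM in NSCs, 38.2 and 41.8 in hybrid cells, 55.0 and 56.8 in ESCs, and 62.9 and 66.1 in EPSCs. No groups overlapped, and the EPSC mean was 6.40 times the NSC mean. Gdap1 (chr1:17145362-17164271, plus strand), known as a fission factor of neurons, was close to the detection limit. It was at 0.159 and 0.278 in NSCs, 0.0905 and 0.0629 in ESCs, 0.0242 and 0 in EPSCs, and 0 and 0.0588 in hybrid cells. These levels correspond to 17.0 and 29.9 fragments in NSCs, 11.1 and 7.07 in ESCs, 1.99 and 0 in EPSCs, and 0 and 5.001 in hybrid cells. A count of 0 allows up to 3 fragments, or 0.0349 FPKM in the EPSC library and 0.0336 in the hybrid library, for counting error only. Both NSC libraries lay above all others in Gdap1, ESCs lay above EPSCs and hybrid cells, and the latter overlapped. Gdap1 stayed below the filter of a mean of 1 FPKM, so 9 of the 10 genes were tested.

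**Figure D1:**
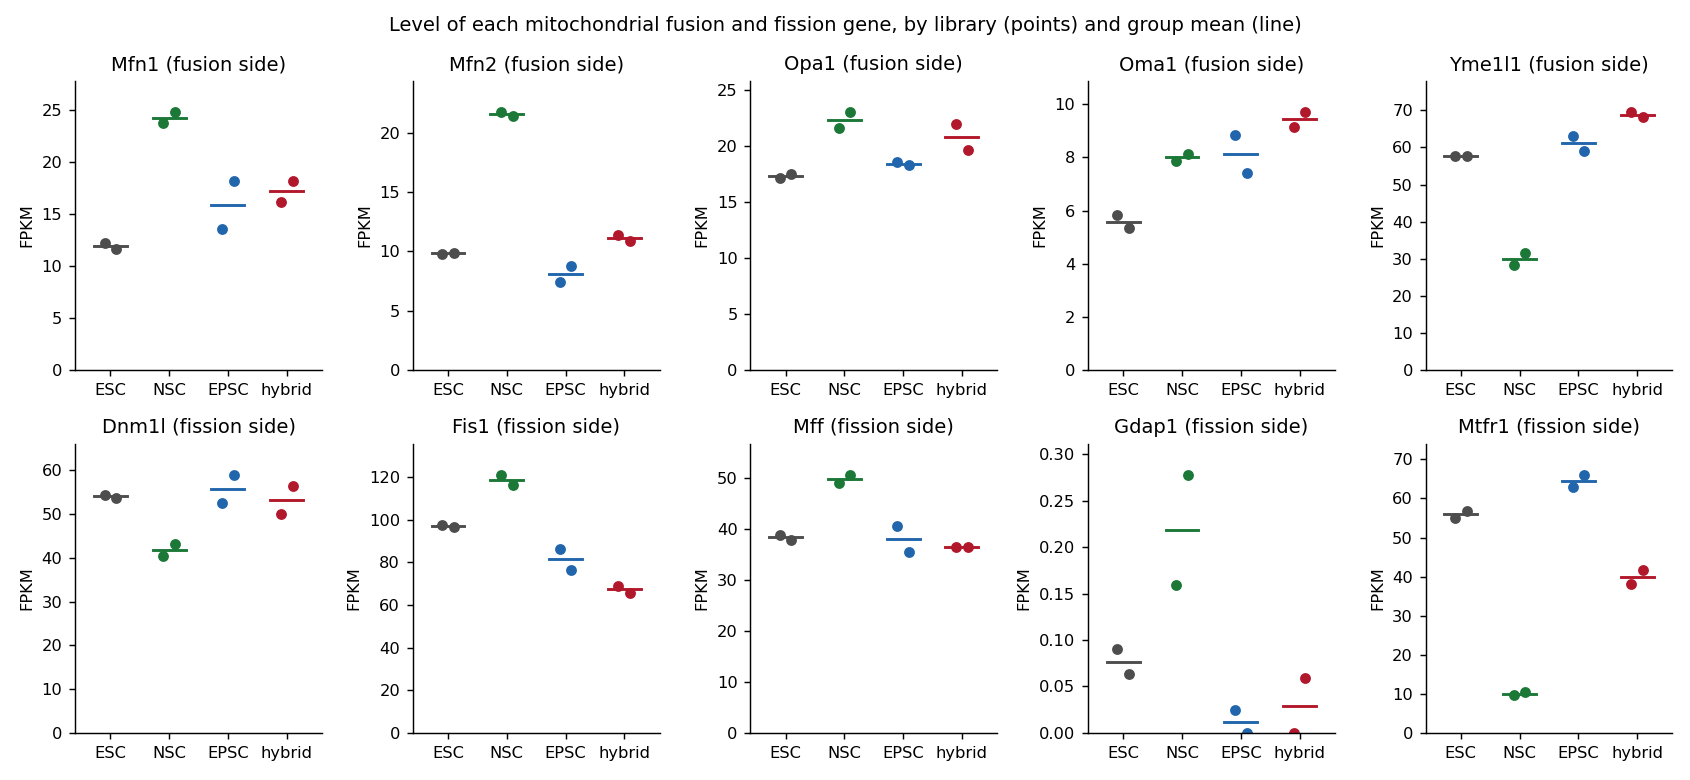
FPKM of the 10 genes in the 4 cell types, with the vertical axis of each panel starting at 0. Points are libraries (2 per group) and lines are group means. In NSCs, Mfn1, Mfn2, Fis1, Mff, and Gdap1 lie above and Yme1l1, Dnm1l, and Mtfr1 below all other libraries.

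Between EPSCs and NSCs, neither side as listed moved as a block, although Mfn1, Mfn2, and Opa1, the fusion side without the proteases, all fell. limma on log2(FPKM + 1) over 13239 genes, with Benjamini-Hochberg adjustment, called 8 of the 9 genes, 3 higher and 5 lower in EPSCs. Of all tested genes, 45.2% were called higher and 41.0% lower. The median log2 fold change was -0.26 over the 5 fusion genes and 0.01 over the 4 fission genes, and 0.08 over all genes. On the fusion side, Mfn2 fell by 1.32 on the log2 scale (SE 0.08, adjusted p = 2.31e-06), Mfn1 fell by 0.59 (SE 0.13, adjusted p = 0.00262), and Opa1 fell by 0.26 (SE 0.07, adjusted p = 0.00839). Yme1l1 rose by 1.00 (SE 0.07, adjusted p = 2.89e-06). Oma1 differed by 0.02 (95% interval -0.21 to 0.24, adjusted p = 0.886). It was called lower after scaling to an equal sum (-0.56, adjusted p = 0.000521) and higher after quantile normalization (0.33, adjusted p = 0.0153). Relative to the median of all genes, it lay at -0.06 as deposited, -0.08 after scaling to an equal sum, and 0.26 after quantile normalization. On the fission side, Mtfr1 rose by 2.56 (SE 0.06, adjusted p = 2.01e-08), and Fis1 fell by 0.54 (SE 0.07, adjusted p = 0.000125) and Mff by 0.38 (SE 0.07, adjusted p = 0.00116). Dnm1l rose by 0.41 (SE 0.08, adjusted p = 0.00185), but its difference was -0.20 after scaling to an equal sum (adjusted p = 0.0843). Relative to the median of all genes, Dnm1l lay at 0.33 as deposited, 0.28 after scaling to an equal sum, and 0.06 after quantile normalization. The Opa1 call was lost without NSC library 2 (adjusted p = 0.0592). Scaling to a common median, which moved the median of all genes to 0.28, ended the calls of Opa1 (adjusted p = 0.72) and Mff (adjusted p = 0.113), and quantile normalization that of Dnm1l (adjusted p = 0.22). By the rule in the study's methods, taken as a mean over 3 FPKM and a ratio over 3, Mtfr1 alone of the 10 genes passed, against 15.6% of all genes. With both thresholds at 2, which the text of the study also names, Mfn2, Yme1l1, and Mtfr1 passed, against 25.7%. The fibroblast markers were higher in EPSCs than in NSCs in 9 of 10 genes, with sums of 75.5 and 77.9 FPKM against 7.57 and 9.03, and their part in these differences was not tested.

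Hybrid cells differed from NSCs in 7 of the 9 genes, 3 of them higher and 4 lower, where 44.5% of all genes were called higher and 42.0% lower by limma with Benjamini-Hochberg adjustment. This comparison shares the NSC libraries with the preceding one. Mfn2 fell by 0.90 (SE 0.08, adjusted p = 2.2e-05) and Mfn1 by 0.48 (SE 0.13, adjusted p = 0.00806), whereas Opa1 differed by -0.10 (95% interval -0.26 to 0.07) and Oma1 by 0.21 (95% interval -0.01 to 0.44), neither of them called. Calls of both genes varied with the scaling. Oma1 was called lower after scaling to an equal sum (-0.37, adjusted p = 0.00565) and higher after scaling to a common median (0.44, adjusted p = 0.00425) or quantile normalization (0.51, adjusted p = 0.00172). Opa1 was called lower after scaling to an equal sum (-0.71, adjusted p = 3.64e-05) and lay at 0.14 after scaling to a common median. The median of all genes was 0.06 as deposited, -0.51 after scaling to an equal sum, and 0.26 after scaling to a common median. Relative to it, Oma1 lay at 0.15, 0.14, and 0.17, and Opa1 at -0.15, -0.20, and -0.12. After quantile normalization, Oma1 lay at 0.46 and Opa1 at -0.18 relative to the median of all genes. Yme1l1 rose by 1.17 (SE 0.07, adjusted p = 1.18e-06). Fis1 fell by 0.81 (SE 0.07, adjusted p = 1.15e-05) and Mff by 0.44 (SE 0.07, adjusted p = 0.000553). Mtfr1 rose by 1.89 (SE 0.06, adjusted p = 9.27e-08). Dnm1l rose by 0.34 (SE 0.08, adjusted p = 0.00476) with FPKM as deposited and fell by 0.27 after scaling to an equal sum (adjusted p = 0.0277), and it was not called after quantile normalization (0.07, adjusted p = 0.456). Relative to the median of all genes, Dnm1l lay at 0.28 as deposited, 0.23 after scaling to an equal sum, and 0.02 after quantile normalization. The Mfn1 call was lost without NSC library 2 (adjusted p = 0.0554) and after scaling to a common median (adjusted p = 0.0977). Without either EPSC library, Oma1 was called (adjusted p = 0.0341 and 0.0333), as was Opa1 without hybrid library 1 (adjusted p = 0.0474). Mtfr1 alone passed the rule at 3, against 15.8% of all genes, and Yme1l1 and Mtfr1 passed it at 2, against 26.1%. Of the 10 fibroblast markers, 9 lay above NSCs in both hybrid libraries, with sums of 222 and 299 FPKM against 7.57 and 9.03, and their part was not tested.

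Hybrid cells and EPSCs, grown in the same medium, differed in 3 of the 9 genes, with 1 fusion gene higher and 2 fission genes lower in hybrid cells. Of all tested genes, limma with Benjamini-Hochberg adjustment called 22.5% higher and 21.9% lower, and the members' 1 of 9 and 2 of 9 were below or near these shares. Mfn2 rose by 0.42 (SE 0.08, adjusted p = 0.0063). Mtfr1 fell by 0.68 (SE 0.06, adjusted p = 0.000404), and Fis1 by 0.26 (SE 0.07, adjusted p = 0.0169). The Fis1 call was lost without EPSC library 1 (adjusted p = 0.0681), without hybrid library 2 (adjusted p = 0.0641), and in a fit of these 2 groups alone (adjusted p = 0.0768). The other fusion genes had differences of 0.12 (Mfn1), 0.17 (Opa1), 0.20 (Oma1), and 0.17 (Yme1l1), with adjusted p of 0.484, 0.0917, 0.137, and 0.0718, and each was called in at least 1 fit with a library left out. Mfn1 was called without EPSC library 2 (0.31, adjusted p = 0.04) and lay at -0.08 without EPSC library 1. Opa1 was called without hybrid library 2 (adjusted p = 0.0295), Oma1 without EPSC library 1 (adjusted p = 0.0414), and Yme1l1 without NSC library 1 (adjusted p = 0.0496) and after quantile normalization (adjusted p = 0.037). Dnm1l differed by -0.07 (95% interval -0.26 to 0.12) and Mff by -0.05 (95% interval -0.22 to 0.11). No member passed the rule at 3 or at 2. The fibroblast markers were also higher in hybrid cells than in EPSCs in 10 of 10 genes, with the sums given above, and their part in these differences was not tested.

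**Figure D2:**
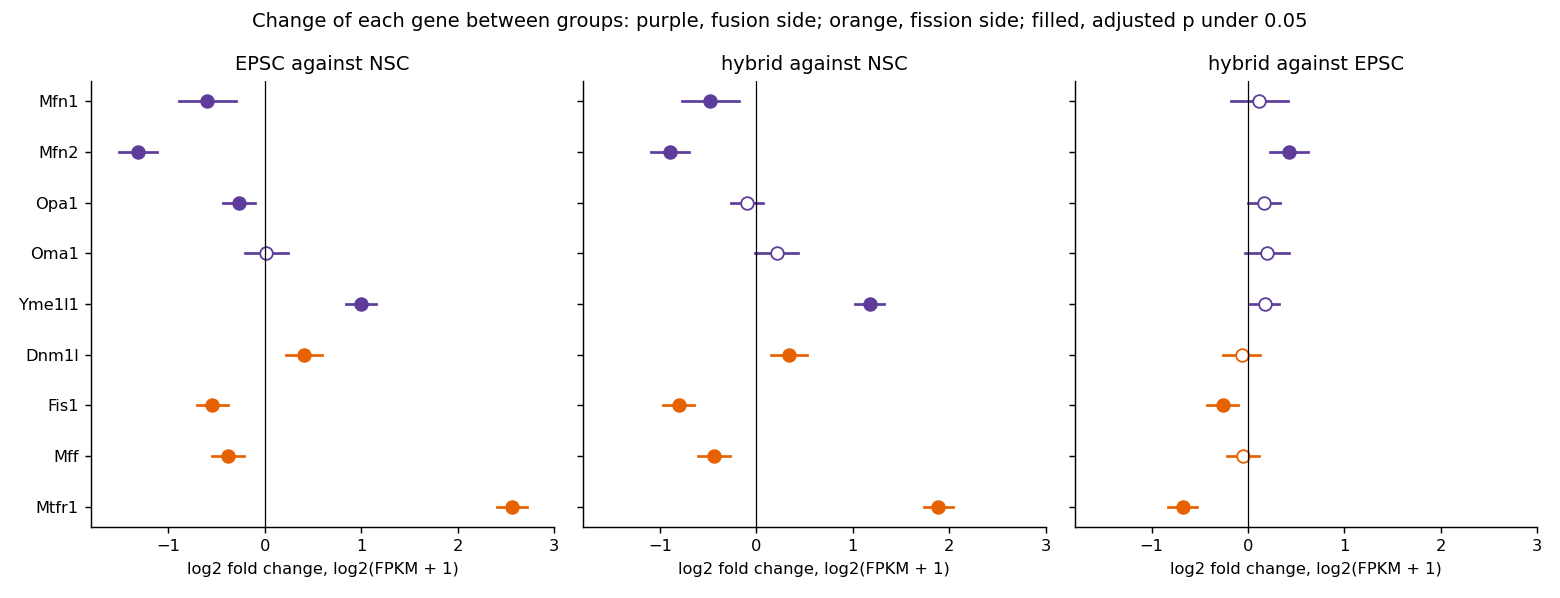
Change of the 9 tested genes in 3 comparisons, as log2 fold change of FPKM + 1 from limma with bars for the 95% interval. Filled points passed an adjusted p under 0.05. Mtfr1 moves most against NSCs (2.56 and 1.89), and Mfn2, Fis1, and Mtfr1 are the filled points between hybrid cells and EPSCs.

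Against ESCs, the second pluripotent reference, hybrid cells had 4 genes higher and 2 lower, where limma with Benjamini-Hochberg adjustment called 35.3% and 30.2% of all genes. All 4 were on the fusion side: Mfn1 (0.49, adjusted p = 0.0104), Opa1 (0.25, adjusted p = 0.0151), and the proteases Oma1 (0.66, adjusted p = 0.00066) and Yme1l1 (0.25, adjusted p = 0.0116). The 2 lower genes were on the fission side, Fis1 (-0.52, adjusted p = 0.000389) and Mtfr1 (-0.48, adjusted p = 0.000495). Left-out libraries changed these calls. Without ESC library 2, the calls of Mfn1, Opa1, and Yme1l1 were lost, at differences of 0.46, 0.27, and 0.25. Opa1 and Yme1l1 were also lost without ESC library 1, at 0.24 and 0.25. Opa1 was lost without hybrid library 1, at 0.17, and Mfn1 without hybrid library 2, at 0.41. In each of these fits, fewer of all genes were called as well. Scaling to an equal sum also ended the Opa1 call (0.19, adjusted p = 0.0544). The fibroblast markers were higher in hybrid cells than in ESCs in 10 of 10 genes, with sums of 222 and 299 FPKM against 12.1 and 13.3, and their part in these differences was not tested.

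EPSCs against ESCs gave 3 higher and 2 lower genes, beside 33.7% and 27.3% of all genes. Oma1 (0.47, adjusted p = 0.00421), Mfn1 (0.37, adjusted p = 0.0346), and Mtfr1 (0.20, adjusted p = 0.0287) were higher, and Mfn2 (-0.26, adjusted p = 0.0297) and Fis1 (-0.25, adjusted p = 0.0134) were lower in limma with Benjamini-Hochberg adjustment. Some of these calls were lost with 1 library left out, and fewer of all genes were called without a library of either group. Without ESC library 1 and without ESC library 2, Mfn1 lay at 0.41 and 0.34, and Mtfr1 at 0.18 and 0.23. In the same fits, Mfn2 lay at -0.26 and -0.26, and Fis1 at -0.25 and -0.26. Without EPSC library 2, Mfn1 lay at 0.18, Mtfr1 at 0.17, and Fis1 at -0.17, and without EPSC library 1, Mfn2 lay at -0.15. Oma1 ranged from 0.35 to 0.58 with a library left out. Mfn1 and Mfn2 also lost the call without NSC library 1 or 2, where their differences, 0.37 and -0.26, cannot change. Fewer of all genes were called in those fits too. A fit of these 2 groups alone called neither Mfn1 (limma, adjusted p = 0.0556) nor Mfn2 (adjusted p = 0.0546). Without the filter, Mfn1 was also not called (adjusted p = 0.0624). Scaling to an equal sum ended the calls of Mfn1 (adjusted p = 0.0902) and Mtfr1 (adjusted p = 0.161), and quantile normalization that of Mtfr1 (adjusted p = 0.186). The fibroblast markers were higher in EPSCs than in ESCs in 9 of 10 genes, and their part was not tested. ESCs against NSCs gave all 9 genes as called, 3 higher (Yme1l1, Dnm1l, and Mtfr1) and 6 lower, beside 42.8% and 41.9% of all genes. Of these, Dnm1l lay at 0.37 as deposited and at -0.18 after scaling to an equal sum. Relative to the median of all genes, Dnm1l lay at 0.33 and 0.29 in these settings, and at 0.11 after quantile normalization. Scaling to a common median, which moved the median of all genes to 0.22 and called 49.3% of them higher and 36.1% lower, left 5 calls, with Opa1, Oma1, Fis1, and Mff lost. Quantile normalization ended the calls of Oma1 (-0.12, adjusted p = 0.295) and Dnm1l (0.17, adjusted p = 0.117). Mfn2 was lower in ESCs by 1.06 and Mtfr1 higher by 2.36 on the log2 scale, and Mtfr1 alone passed the rule at 3, against 15.0% of all genes. Mfn1, Mfn2, and Mtfr1 passed it at 2, against 24.5%. The fibroblast markers were higher in ESCs than in NSCs in 8 of 10 genes, and their part was not tested.

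The Mfn2/Dnm1l ratio was 0.180 and 0.183 in ESCs, 0.537 and 0.497 in NSCs, 0.141 and 0.148 in EPSCs, and 0.228 and 0.192 in hybrid cells. It did not overlap between groups. The study described this ratio as much higher in NSCs than in EPSCs and as similar in hybrid cells and EPSCs. The mean was 3.57 times higher in NSCs than in EPSCs, 2.46 times higher in NSCs than in hybrid cells, and 1.45 times higher in hybrid cells than in EPSCs. An exact two-sided permutation test of 2 libraries against 2 gave p = 0.333 for each, which is the smallest p this design allows. The fold of 3.57 between NSCs and EPSCs combines the 2.67-fold difference in Mfn2 with the 1.33-fold difference in Dnm1l in the other direction, with FPKM as deposited. This split into 2 genes, unlike the ratio, depends on the scaling. After scaling to an equal sum both genes were lower in EPSCs, with log2 fold changes of -1.95 for Mfn2 and -0.20 for Dnm1l, the latter not called (limma, Benjamini-Hochberg adjusted p = 0.0843).

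Other fusion to fission ratios went partly with Mfn2/Dnm1l and partly against it. The 5 fusion genes and the 4 fission genes above 0 in every library make 20 ratios, which share genes and are not independent. Between NSCs and EPSCs, 11 ratios were higher in NSCs, 7 were lower, and 2 overlapped. Among all ordered pairs of tested genes, 46.4% had both NSC libraries above both EPSC libraries. Ranked by fold, Mfn2/Dnm1l was number 5, after 4 ratios over Mtfr1, of which Mfn2/Mtfr1 (2.22 and 2.06 in NSCs, 0.118 and 0.132 in EPSCs) differed 17.1-fold. The 7 lower ratios had Opa1, Oma1, or Yme1l1 over Fis1 or Mff, or Yme1l1 over Dnm1l. The lowest was Yme1l1/Fis1, at 0.234 and 0.272 in NSCs and 0.730 and 0.773 in EPSCs. Each of the 4 Mfn2 ratios was higher in NSCs, whereas Mfn1/Fis1 (0.196 and 0.213 in NSCs, 0.157 and 0.238 in EPSCs) and Mfn1/Mff overlapped. Between NSCs and hybrid cells, 11 were higher in NSCs, 8 lower, and 1 overlapped, with 46.1% for all gene pairs. Between NSCs and ESCs, 15 were higher in NSCs, 3 lower, and 2 overlapped, with 47.0% for all gene pairs. The 3 lower ratios had Yme1l1 over Dnm1l, Fis1, or Mff.

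Between hybrid cells and EPSCs, 17 of the 20 ratios were higher in hybrid cells, 3 overlapped, and none was lower. Among all gene pairs, 33.0% were higher in both hybrid libraries. The 3 that overlapped were Mfn1/Fis1, Mfn1/Mff, and Opa1/Dnm1l (0.440 and 0.349 in hybrid cells, 0.354 and 0.310 in EPSCs). The highest fold was 2.23, for Mfn2/Mtfr1, at 0.299 and 0.260 in hybrid cells and 0.118 and 0.132 in EPSCs. Without the 5 ratios over Mtfr1, 12 of 15 ratios were higher in hybrid cells than in EPSCs and 0 lower, but 6 were higher and 7 lower in NSCs than in EPSCs. All 20 ratios were higher in hybrid cells than in ESCs, where 41.4% of all gene pairs were.

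**Figure D3:**
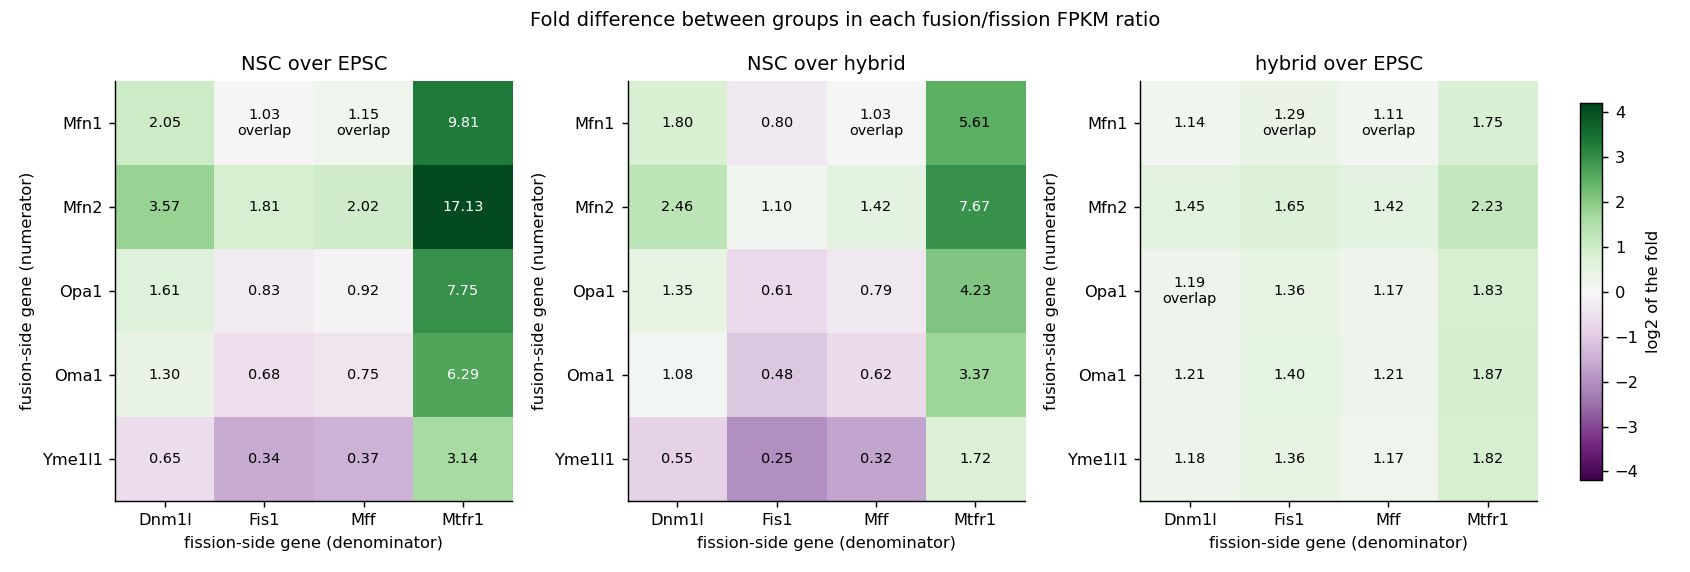
Fold difference between groups in the ratio of each fusion gene to each fission gene, from ratios of FPKM averaged over 2 libraries. Color gives the log2 of the fold, green above 1 and purple below, and ratios whose libraries overlapped are marked. The Mtfr1 column is highest against NSCs (17.1 for Mfn2/Mtfr1), Yme1l1 has folds below 1 there except over Mtfr1, and all 20 folds of hybrid cells over EPSCs exceed 1.

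A single number per library was formed as the mean log2 FPKM of the 5 fusion genes minus that of the 4 fission genes. It was -1.98 and -2.01 in ESCs, -1.87 and -1.78 in EPSCs, -1.29 and -1.35 in hybrid cells, and -1.04 and -1.01 in NSCs. The groups did not overlap, with hybrid cells 0.50 above EPSCs and NSCs 0.79 above EPSCs. With Mfn1, Mfn2, and Opa1 against Dnm1l, Fis1, and Mff alone, these differences were 0.39 and 0.60. Without Mtfr1, an alternative chosen after the data were seen, NSCs lay 0.08 above EPSCs and 0.28 below hybrid cells, whereas NSCs stayed highest in the core version, which leaves out Mtfr1 together with the proteases. The place of NSCs in this order thus depended on which genes were kept. Without Mtfr1 alone, NSCs were at -1.71 and -1.67, overlapping the EPSC libraries at -1.83 and -1.70 and below the hybrid libraries at -1.39 and -1.42. Without the proteases Oma1 and Yme1l1, NSCs lay 1.31 above EPSCs and 0.79 above hybrid cells. Hybrid cells were above EPSCs in each of these versions, by 0.36 to 0.53.

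**Figure D4:**
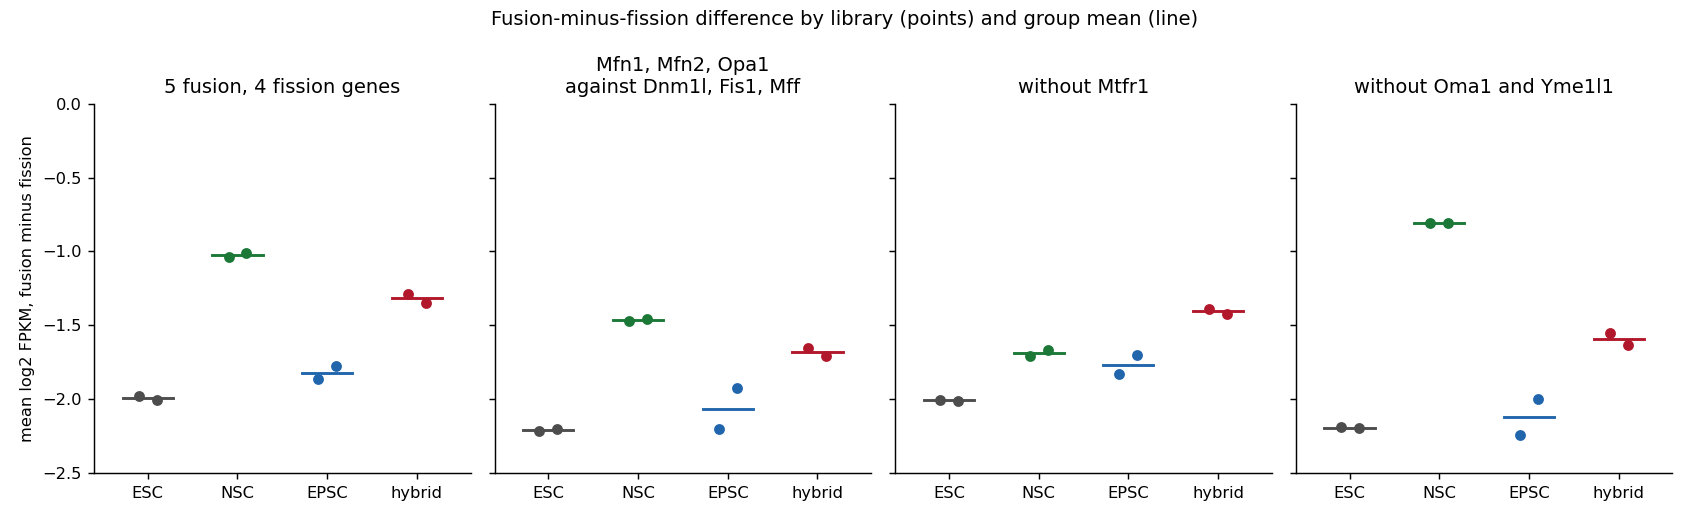
Mean log2 FPKM of fusion genes minus that of fission genes in each library, for all members above 0 in every library, for the core genes, without Mtfr1, and without the proteases. Points are libraries and lines are group means. Hybrid cells lie above EPSCs in each panel, and NSCs move from above hybrid cells to below them when Mtfr1 alone is left out.

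By Pearson's r of log2(FPKM + 1) over the 8 libraries, which form 4 groups, the genes most like Mfn2 were Ccdc57 (0.995), AI429214 (0.993), and Stambpl1 (0.993), and 1005 of 13230 genes exceeded 0.95. The genes most like Dnm1l were Tcp11 (0.985), Mafa (0.982), and Zfp217 (0.978), and 85 genes exceeded 0.95. The NSC means were 16.2 FPKM for Stambpl1 and 7.37 for Zfp217, against 2.30 and 15.8 in EPSCs.

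Among 11 other fusion and inner membrane factors, limma with Benjamini-Hochberg adjustment called 8 higher and 3 lower in EPSCs than in NSCs, beside 45.2% and 41.0% of all genes. Of these, Pld6 (also called MitoPLD), a lipid-modifying enzyme of the outer membrane, was at 2.37 and 3.003 FPKM in EPSCs against 0 and 0.0527 in NSCs. Stoml2, an inner membrane scaffold linked to fusion under stress, was at 155 and 145 in EPSCs against 56.6 and 59.0 in NSCs, and at 196 and 181 in hybrid cells. Of 11 other fission factors, 5 were higher and 4 lower in EPSCs, beside the same shares of all genes, a split that became 2 and 7 after scaling to an equal sum, beside 30.7% and 56.8% of all genes. Mtfr2, the paralog of Mtfr1, was higher like it (15.9 and 18.3 in EPSCs, 6.07 and 6.28 in NSCs). Spire1, an actin nucleator with a mitochondrial form, was lower (7.35 and 7.18 against 22.3 and 23.0). Between hybrid cells and EPSCs, 4 other fusion factors were higher and 4 lower, and 4 other fission factors were higher and 2 lower, beside 22.5% and 21.9% of all genes. Of these calls, that of Pld6 (0.32) was lost with the replicate number as a block (adjusted p = 0.0616), after scaling to an equal sum (adjusted p = 0.0827), and after quantile normalization (adjusted p = 0.151). The call of Mtfr2 (-0.25) was lost after scaling to an equal sum (adjusted p = 0.0822) and after quantile normalization (adjusted p = 0.0759).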

How the data were processed

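RNA sequencing covered 8 libraries, 2 per cell type, from stranded poly-A libraries. Per the submitters' processing notes and the study's methods, reads were aligned to mm10 with STAR 2.7.9a, and the authors deposited FPKM per gene and library from Cuffnorm of Cufflinks 2.2.1. The annotation, the strand setting, and the Cuffnorm normalization are not given in the sources used here. Counts were not used, so the depth (22.0 to 32.6 in units of 1000000 fragments) was derived from the steps of FPKM values of 2247 genes with 1 transcript longer than 1500 nucleotides and an assumed fragment length of 200. Between 75.9% and 84.7% of the values used came within 0.1 of a whole fragment.

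limma 3.58.1 in R 4.3.3 (lmFit, contrasts, eBayes with trend, two-sided) took log2(FPKM + 1) of the 8 libraries together, over 13239 genes whose mean reached 1 FPKM in any of the 4 groups, and genes were called at a Benjamini-Hochberg adjusted p under 0.05. The added 1 understates changes of low genes. The code was tested on simulated data. Ratios and list levels were computed in Python 3.11.15 from FPKM as deposited, and gene positions came from GENCODE on GRCm38. Replicate numbers did not enter the main model. Alternatives were the added constant, the filter, 3 scalings, a fit of 2 groups, the replicate block, and each library left out.

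Every member is named. From each list of related genes, the text names the 2 called genes with the largest change between EPSCs and NSCs. The genes most like Mfn2 and Dnm1l were taken by Pearson's r. Members and lists were chosen with earlier results of these data known. Marker lists covered pluripotent cells, NSCs, fibroblasts, and neurons and glia.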

Additional observations from a re-analysis of the deposited data

How the results depend on the processing

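Of 864 member log2 fold changes under alternatives, 787 kept direction and side of the threshold, 46 lost the call, 12 gained it, and 19 changed sign. The filter, the replicate block, the fit of 2 groups, and a left-out library of a group not compared cannot move a difference, only its adjusted p. Direction was fixed in advance in those fits, so 787 overstates how far the direction held. Scaling to an equal sum turned Oma1 to -0.56 and Dnm1l to -0.20 (EPSCs against NSCs), Oma1 to -0.37 and Dnm1l to -0.27 (hybrid cells against NSCs), Dnm1l to -0.18 (ESCs against NSCs), and Dnm1l to -0.021 (EPSCs against ESCs). A common median turned Opa1 to 0.14 (hybrid cells against NSCs), and quantile normalization turned Yme1l1 to -0.0021 and Dnm1l to -0.042 (EPSCs against ESCs). Scaling to an equal sum or a common median also moved the median of all genes against NSCs, and relative to that median the members named for these comparisons kept their sign. The cause of the turns under quantile normalization was not tested. With a library left out, Oma1 ranged from -0.099 to 0.13 (EPSCs against NSCs). Mfn1 ranged from -0.078 to 0.31, Mff from -0.15 to 0.042, and Dnm1l from -0.15 to 0.020 (hybrid cells against EPSCs). Mff ranged from -0.11 to 0.080 and Dnm1l from -0.042 to 0.12 (EPSCs against ESCs), and Dnm1l from -0.11 to 0.061 (hybrid cells against ESCs).

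The number of called members with a library left out was 7 to 8 (EPSCs against NSCs), 6 to 8 (hybrid cells against NSCs), 9 (ESCs against NSCs), 3 to 4 (hybrid cells against EPSCs), 1 to 5 (EPSCs against ESCs), and 3 to 6 (hybrid cells against ESCs). It was 5 for ESCs against NSCs after scaling to a common median, and 3 for EPSCs against ESCs both after scaling to an equal sum and in a fit of these groups alone. Without an ESC library, fewer of all genes were also called in each comparison with ESCs. With both thresholds at 2, 3, 2, and 3 members passed the study's rule for EPSCs, hybrid cells, and ESCs against NSCs.

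With 1 added to both genes, the Mfn2/Dnm1l fold of NSCs over EPSCs was 3.30 in place of 3.57, and leaving out a library gave 3.43 to 3.71. The fusion-minus-fission difference was 0.59 (NSCs over EPSCs), 0.42 (hybrid cells over EPSCs), and 0.16 (NSCs over hybrid cells) with 1 added to all 10 genes, and 0.60, 0.39, and 0.21 with core genes. In versions added after the data were seen, it was 0.081, 0.36, and -0.28 without Mtfr1, and 1.31 and 0.79 for NSCs over EPSCs and hybrid cells without the proteases. Leaving out a library gave 0.75 to 0.84, 0.46 to 0.55, and 0.26 to 0.32 for the main version, and 18 to 19 ratios higher in hybrid cells than in EPSCs in place of 17, since single libraries overlap less.

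Same-numbered libraries deviated together with r of 0.28 for hybrid cells against EPSCs. In the other comparisons r ran from -0.11 to 0.07, and the numbers were not taken as pairs in the main model. With the replicate number as a block, the number of called members stayed at 8, 7, 9, 3, 5, and 6, and no member call changed; among the other lists between hybrid cells and EPSCs, the calls of Pld6 and Tomm20 were lost and that of 2410015M20Rik was gained (adjusted p = 0.0616, 0.0597, and 0.0441). For hybrid cells against EPSCs, the block moved the genes called from 5881 to 6060. For ESCs against NSCs, where r was -0.11, it moved them from 11212 to 11265. Crossed numbers, an alternative chosen after seeing the data, moved them to 11295 and were run for ESCs against NSCs only. At this depth, Gdap1 could be read only from 0 to 29.9 fragments per library and was not tested.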

Other observations

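Other mitochondrial gene groups were counted with limma and Benjamini-Hochberg adjustment. For EPSCs against NSCs, 45.2% of all tested genes were called higher and 41.0% lower as deposited, 30.7% and 56.8% after scaling to an equal sum, and 51.4% and 36.1% after scaling to a common median. Of 7 genes of outer membrane import and the VDAC pores, 6 were higher and none lower in EPSCs than in NSCs (median log2 difference 0.95), and 5 were higher and 1 lower after scaling to an equal sum, against 7 and none after scaling to a common median. Tomm20, an import receptor, was at 70.7 and 72.3 FPKM in EPSCs against 28.5 and 27.2 in NSCs, and Tomm70a, another import receptor, was at 123 and 112 against 51.6 and 55.4. Of 10 biogenesis genes, 6 were higher and 2 lower, both as deposited and after scaling to a common median. After scaling to an equal sum 5 were higher and 3 lower, with Nrf1 no longer called (-0.07, adjusted p = 0.31) and Polrmt called lower (-0.61, adjusted p = 0.00163). Ppargc1a, the coactivator PGC-1alpha, was at 6.39 and 6.50 in NSCs and at or below 0.0132 in every other library, whereas its relative Pprc1 was at 63.6 and 60.9 in EPSCs against 15.4 and 17.0 in NSCs.

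Among 5 mitophagy genes, 4 were tested, and all 4 were lower in EPSCs than in NSCs under each of the 3 scalings and as deposited. Pink1, a kinase that marks damaged mitochondria, was at 5.73 and 7.02 FPKM in EPSCs, 5.66 and 6.34 in hybrid cells, 13.4 and 12.7 in ESCs, and 24.5 and 20.04 in NSCs. Bnip3, a mitophagy receptor that is known to rise in low oxygen, had the widest range of the list, at 143 and 138 in ESCs, 44.5 and 41.9 in NSCs, 22.6 and 19.0 in EPSCs, and 4.81 and 3.15 in hybrid cells. It fell by 2.15 on the log2 scale from EPSCs to hybrid cells (limma, Benjamini-Hochberg adjusted p = 0.000154).

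Of 9 cristae genes, 4 were higher and none lower in EPSCs than in NSCs, which became 1 higher and 6 lower after scaling to an equal sum, 3 and 3 after quantile normalization, and 7 and none after scaling to a common median. The median of all genes lay at -0.48, 0.07, and 0.28 under these scalings. Samm50, of the outer membrane sorting machinery, was at 140 and 122 FPKM in EPSCs against 53.9 and 58.8 in NSCs. Dnajc11 was at 55.1 and 46.2 against 31.4 and 31.5, a call that was lost after scaling to an equal sum (log2 fold change 0.07, adjusted p = 0.354). Of 4 transport genes, 1 was higher and 2 lower in EPSCs, which became 0 higher and 4 lower after scaling to an equal sum and 1 and 1 after scaling to a common median. Trak1, a kinesin adaptor, was at 8.14 and 8.72 in EPSCs against 27.1 and 27.1 in NSCs, and Trak2 was at 14.1 and 14.3 against 16.4 and 17.1, a difference of 0.01 after scaling to a common median (adjusted p = 0.861).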
